A study of Drosophila melanogaster with 32 samples.

Results

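The genes described here are 36 cell cycle and DNA replication genes of Drosophila melanogaster, taken by FlyBase symbol from a list of cyclins, cyclin-dependent kinases (Cdks), E2F and Rbf factors, replication genes and mitosis genes. All 36 were found among the 16257 genes of the deposited count table, 1 of them (Mad2) under another spelling. Polyadenylated RNA was sequenced from somatic cells or germ line cells sorted from developing ovaries, to ask how the Hippo pathway genes hippo (hpo) and yorkie (yki) act while terminal filaments form. In somatic cells bab:GAL4 drove UAS hpo RNAi or UAS yki RNAi, each together with UAS GFP, and cells were collected early (72 hours after egg laying, larvae of the third instar), mid (96 hours, the same instar) or late (120 hours, white pupae). Germ line cells had nos:GAL4 in place of bab:GAL4, with the same hairpins and GFP, and were collected mid and late. Each of these 10 groups had 3 libraries, 18 somatic and 12 germ line in all. The stage of each group, its driver and its hairpin come from the labels. The 2 early germ line samples were not analysed here.

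Every group expressed a hairpin and GFP, so each comparison is between knockdowns, stages or cell types, and none is with untreated cells. The nos:GAL4 stock also carries UAS-Dcr-2, which the bab:GAL4 stock is not said to carry, so cell type, driver and Dcr-2 cannot be told apart. Nothing in the labels says that replicates came from separate crosses or animals, and p-values therefore measure the spread between these libraries.

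A cell enters S phase when G1 cyclins and their Cdks inactivate Rbf proteins and free E2F with its partner Dp to switch on replication genes. Origins are licensed when the Orc proteins and Cdt1 (dup in flies) load the Mcm helicase, and mitosis begins when a Cdc25 phosphatase activates Cdk1 with its cyclins. In this larval organ somatic cells proliferate and sort into terminal filaments while primordial germ cells divide. The product of yki, a transcriptional coactivator restrained by hpo, is known to drive proliferation in many fly tissues.

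Library totals ran from 15.2 to 75.1 in units of 1e+06 counts, and no member fell below 116 counts in any library. Counts of hpo ran from 5.29 to 26.6 CPM (counts per 1e+06 counts of the library) in the somatic hpo RNAi libraries, against 72.8 to 129 CPM in the yki RNAi ones. For the germ line these ranges were 5.69 to 18.1 against 52.9 to 79.4 CPM. Counts of yki ran from 5.05 to 14.9 CPM in the somatic yki RNAi libraries, against 16.5 to 32.9 CPM in the hpo RNAi ones. In the late germ line the ranges overlapped, at 8.16 to 9.58 against 9.26 to 10.4 CPM. In edgeR's test yki had an adjusted p under 0.05 in early and mid soma. In late soma it did not (log2 hpo minus yki RNAi 0.99, adjusted p = 0.245). Nor did it in the germ line, at the mid (0.63, adjusted p = 0.715) or late stage (0.17, adjusted p = 0.951). The germ line marker list summed to 50.2 to 121 CPM in soma and to 6262 to 7731 CPM in the germ line. Among somatic markers, lz was at or near 0 in every group and jing was higher in the germ line, and the somatic list still summed to 282 to 456 CPM there. Late somatic libraries also held 940 to 1858 CPM of the hemocyte list, nearly all of it Pxn, against 27.1 to 180 CPM at the earlier stages.

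**Figure D1:**
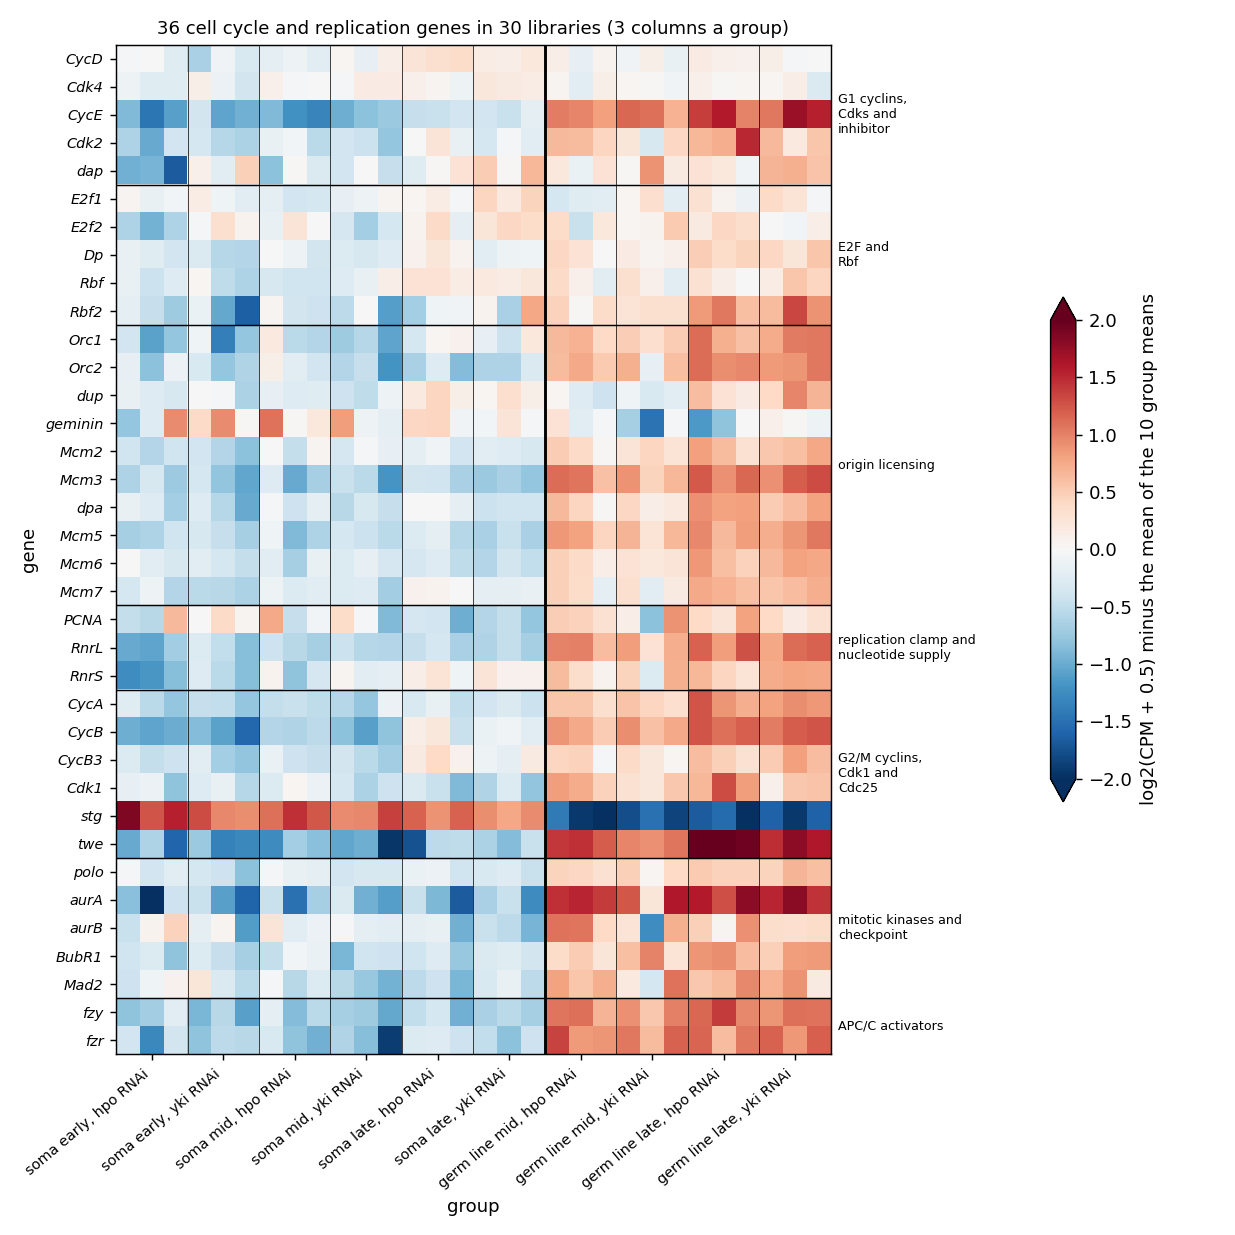
Each row is a gene, ordered by role, and each column a library, 3 to a group, with soma left of the thick line and germ line right of it. Colour gives log2(CPM + 0.5) minus the mean of the 10 group means (red higher, blue lower), and stg is the row with the opposite pattern to twe, aurA and CycE.

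The clearest differences among the 36 genes were between the cell types. More members were lower than higher in soma, and those lower there included the Cdc25 phosphatase twe, the Aurora A kinase aurA, the G1/S cyclin CycE and both activators of the anaphase-promoting complex, fzy and fzr. The other Cdc25 gene, stg, stood the other way, among the members with most RNA per length in soma and among those with least in the germ line. Averaged over the RNAi conditions, 22 members were called at the mid stage (adjusted p under 0.05 in edgeR's quasi-likelihood test over all 12089 genes), 16 lower and 6 higher in soma. At the late stage 28 were called, 21 lower and 7 higher in soma. Of all genes tested, 54.1% were called at the mid stage and 51.9% at the late stage, so a call between cell types was common in itself. At the mid stage 29% of all genes were called lower in soma and 25.1% higher, and at the late stage 26.5% lower and 25.4% higher.

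Scaling mattered for the direction of the smaller differences. TMM, the scaling used, sets libraries on a common level through the bulk of genes and gave factors of 1.05 to 1.22 in the germ line and 0.848 to 0.970 in soma. Scaled to library totals alone, the members moved by a median log2 of -0.40 at the mid stage and -0.41 at the late stage, and the median of all genes moved with them, from -0.17 to -0.56 and from -0.12 to -0.52. With library totals 31 members were called at the mid stage, 29 lower and 2 higher in soma, against 58% of all genes. At the late stage 29 were called, 28 lower and 1 higher, against 56.5% of all genes. All differences between cell types below are on the TMM scale unless library totals are named, and CPM carry no TMM factor.

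Within single RNAi conditions the same comparison called 12 members at the mid stage under hpo RNAi (37.9% of all genes) and 19 under yki RNAi (38.8%). At the late stage it called 22 with hpo RNAi (36.7%) and 24 with yki RNAi (38.1%). A set of 12 members was called in all 4 of these comparisons. The share of all genes called in all 4 is not given here, so this count has no background. The 10 that were lower in soma each time were CycE, Mcm3, Mcm5, RnrL, CycA, CycB, twe, aurA, fzy and fzr, and the 2 that were higher were stg and Cdk4. With library totals, 11 of the 12 were still called in all 4 comparisons with the same direction, and Cdk4 was not. Cdk4 was also lost with RLE size factors, with no filter and with only the compared libraries, and CycA with the exon length trend removed and with only the compared libraries.

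Both fly Cdc25 phosphatases remove the inhibitory phosphates from Cdk1, and string (stg) is known for mitotic entry while twine (twe) is known for meiosis and the early embryo. The gene stg (FBgn0003525, chromosome arm 3R, 29251826 to 29255800 on the minus strand of BDGP6.54) ran from 332 to 705 CPM over the 18 somatic libraries, with a median of 426. In the 12 germ line libraries it ran from 46.6 to 72.2 CPM, with a median of 58.2. No library of one cell type came near the other. The log2 difference, soma minus germ line, was 3.32 ± 0.15 (SE) at the mid stage (adjusted p = 9.23e-16) and 3.13 ± 0.15 at the late stage (adjusted p = 1.76e-15). With library totals it was 2.93 and 2.73.

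For twe (FBgn0002673, 2L, 16259414 to 16261877, minus strand) the germ line libraries ran from 50.8 to 121 CPM with a median of 74.3, and the somatic libraries from 6.51 to 19.3 CPM with a median of 13.8. Its log2 difference was -1.90 ± 0.21 (SE) at the mid stage (adjusted p = 2.33e-08) and -2.20 ± 0.21 at the late stage (adjusted p = 1.59e-09). An exon of twe overlaps EndoGI on the other strand by 98 bp, and the strand counted is not given in the sources used here. Over the 30 libraries EndoGI had 144101 counts in total, against 38250 for twe. Per exon length, twe made up 53.8% ± 4.4 (SD, n = 3) to 71.5% ± 3.1 of the summed RPKM (CPM per kilobase of exon) of stg and twe in the germ line groups. In the somatic groups it made up 2.93% ± 1.44 to 5.71% ± 0.51. By RPKM, stg ranked between 1 and 3 among the 36 members in the somatic groups. In the germ line groups its rank lay between 33 and 34.

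**Figure D2:**
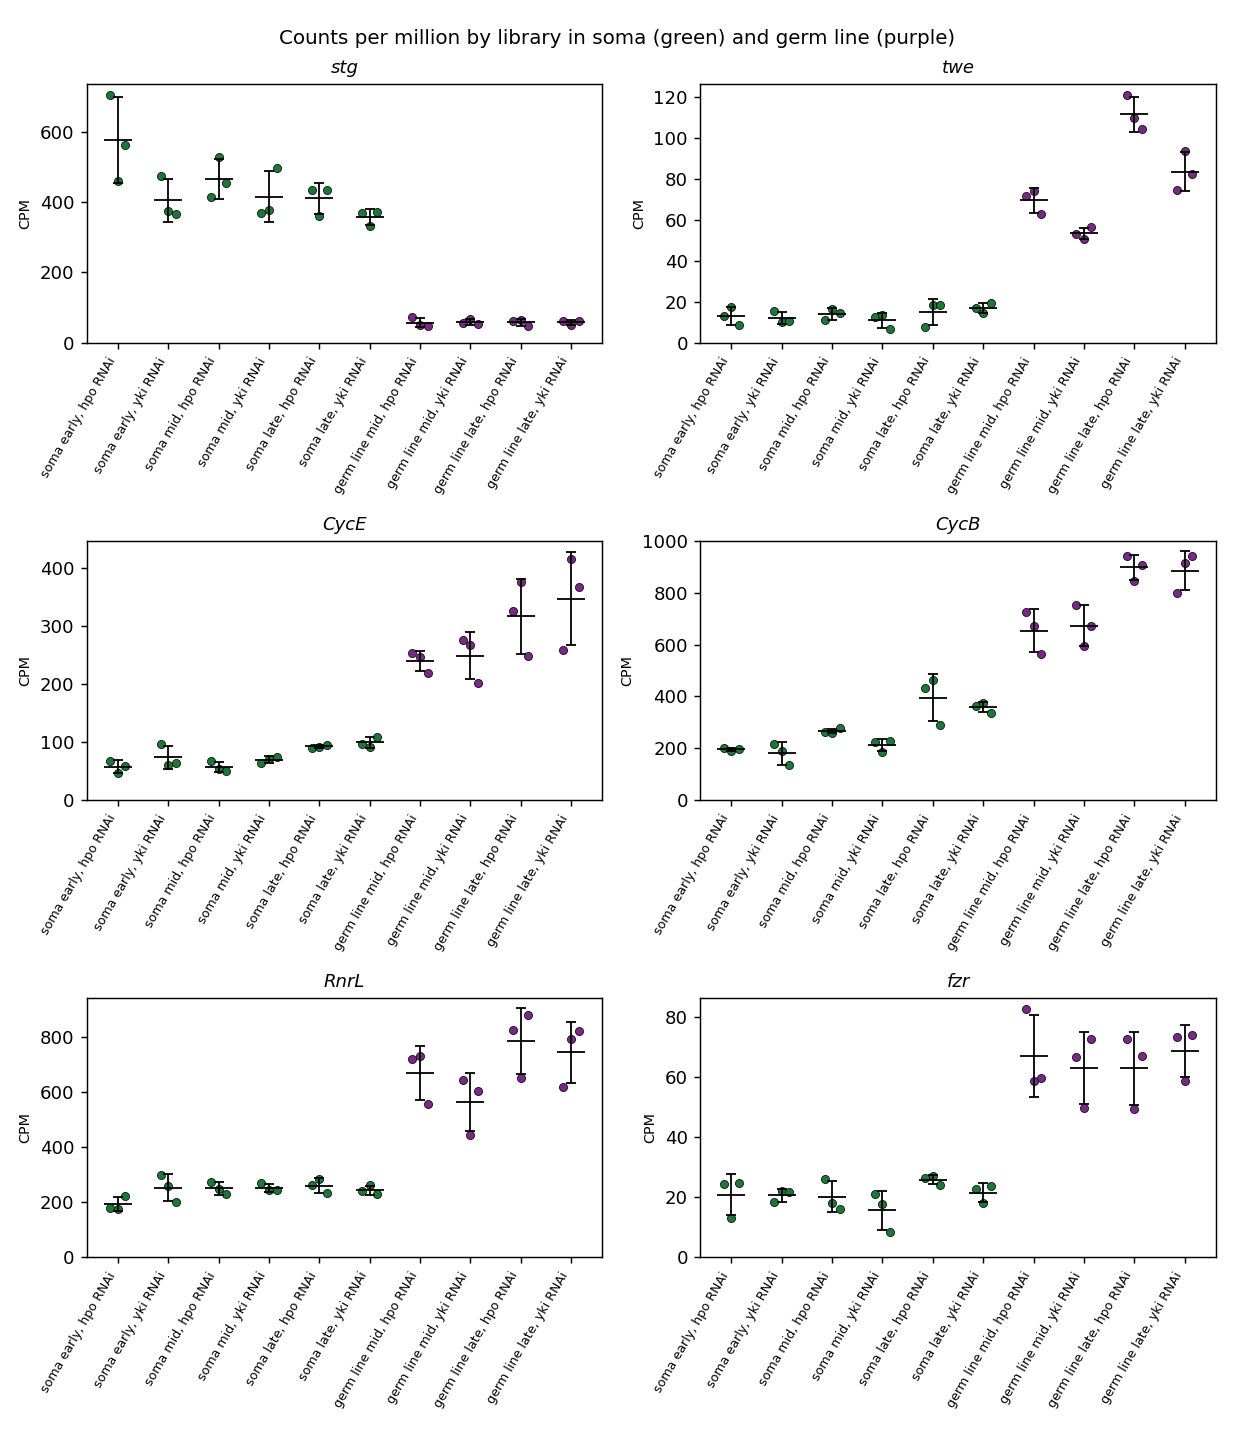
Each panel shows 1 gene, with 1 point a library (3 a group), the group mean as a horizontal tick, the SD as the bar and CPM from 0 on the linear y axis. In the panels of stg, twe, CycE, CycB, RnrL and fzr no somatic library (green) overlaps a germ line library (purple), with stg between 332 and 705 CPM in soma and between 46.6 and 72.2 in the germ line.

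Among the G1 genes, cyclin E (CycE), which with Cdk2 starts S phase, differed most between the cell types. CycE (FBgn0010382, 2L, 15727581 to 15748150, minus strand) ran from 45.5 to 109 CPM in soma, with a median of 69.1, and from 202 to 416 CPM in the germ line, with a median of 263. The log2 difference was -1.57 ± 0.14 (SE) at the mid stage (adjusted p = 3.56e-10) and -1.39 ± 0.14 at the late stage (adjusted p = 2.59e-09). Its partner kinase Cdk2 was lower in soma at the late stage (log2 -0.42 ± 0.15, adjusted p = 0.0204) and stood at -0.34 ± 0.15 with an adjusted p of 0.0538 at the mid stage. The late Cdk2 call was lost in 4 of the 30 fits with 1 library left out, with adjusted p up to 0.118. Cdk2 shares 1010 bp of exon with CG17267 on the other strand, which had 1127 counts in total against 76100 for Cdk2.

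The earlier acting pair of cyclin D (CycD) and Cdk4 stood otherwise. CycD was higher in soma by a log2 of 0.32 ± 0.11 (SE) at the mid stage (adjusted p = 0.0147) and 0.57 ± 0.11 at the late stage (adjusted p = 6.29e-05), and Cdk4 by 0.46 ± 0.10 (adjusted p = 3.32e-04) and 0.50 ± 0.10 (adjusted p = 1.4e-04). With library totals neither gene was called, with CycD at -0.08 and 0.16 and Cdk4 at 0.07 and 0.09. In CPM, Cdk4 covered nearly the same range in soma (38.8 to 58.7, median 50.8) and germ line (40.7 to 55.0, median 51.2). Per length, CycE made up 31.0% ± 5.1 (SD, n = 3) to 40.4% ± 11.1 of the summed RPKM of CycD and CycE in the somatic groups and 63.6% ± 3.1 to 70.8% ± 6.3 in the germ line groups. That share does not depend on the scaling. For dacapo (dap), the Cdk2 inhibitor of flies, the log2 difference was -0.18 ± 0.20 and 0.24 ± 0.20, with adjusted p of 0.466 and 0.33.

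The E2F and Rbf genes differed less. The activator E2f1 was higher in soma by a log2 of 0.30 ± 0.11 (SE) at the mid stage (adjusted p = 0.023) and 0.46 ± 0.11 at the late stage (adjusted p = 0.00108). The repressor E2f2 and the retinoblastoma homolog Rbf were called at the late stage, by 0.46 ± 0.15 (adjusted p = 0.0141) and 0.35 ± 0.12 (adjusted p = 0.0145). With library totals none of these calls held, with E2f1 at -0.09 and 0.05, E2f2 at 0.05 and Rbf at -0.05. The mid call of E2f1 was also lost in 5 of the 30 fits with 1 library left out, with adjusted p up to 0.083. The late call of E2f2 was also lost without soma hpo RNAi late replicate 2 (adjusted p = 0.0554), and that of Rbf without germ line yki RNAi late replicate 1 (adjusted p = 0.0526). The shared partner Dp (0.00 ± 0.08 and -0.02 ± 0.08) and Rbf2 (-0.27 ± 0.25 and -0.57 ± 0.25) were not called.

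The Mcm2 to Mcm7 subunits form 1 ring with equal parts of each, and dpa is the fly Mcm4. Mcm3 and Mcm5 had the widest differences of the 6 between cell types. Mcm3 (FBgn0284442, X, 5323855 to 5326738, plus strand) ran from 128 to 243 CPM in soma with a median of 185, and from 394 to 721 CPM in the germ line with a median of 579. Its log2 difference was -1.07 ± 0.14 (SE) at the mid stage (adjusted p = 2.03e-07) and -1.32 ± 0.14 at the late stage (adjusted p = 5.13e-09). Mcm5 ran from 132 to 230 CPM in soma and from 296 to 508 CPM in the germ line, without overlap, and differed by -0.71 ± 0.11 and -0.91 ± 0.11 (adjusted p = 7.11e-06 and 1.26e-07).

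The other 4 subunits were not called at the mid stage, at log2 -0.07 for Mcm2, -0.25 for dpa, -0.19 for Mcm6 and -0.08 for Mcm7. At the late stage they were lower in soma, by -0.45 ± 0.12 (SE, adjusted p = 0.00174) for Mcm2, -0.58 ± 0.11 (adjusted p = 1.01e-04) for dpa, -0.72 ± 0.10 (adjusted p = 5.59e-07) for Mcm6 and -0.31 ± 0.10 (adjusted p = 0.0133) for Mcm7. With library totals all 4 were called lower at both stages. The 6 subunits stayed within a narrow band of RPKM, with the highest 1.46 ± 0.08 (SD, n = 3) to 1.75 ± 0.07 times the lowest over the 10 group means.

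Of the other licensing genes, the origin recognition subunits Orc1 and Orc2 were lower in soma at both stages, Orc1 by -0.65 ± 0.17 (SE) and -0.57 ± 0.17 and Orc2 by -0.59 ± 0.17 and -1.12 ± 0.17, with adjusted p from 2.42e-06 to 0.00772. The loading factor dup was higher in soma at the mid stage by 0.33 ± 0.12 (adjusted p = 0.0239), a call lost with library totals (-0.07) and in 4 of the 30 fits with 1 library left out, and stood at 0.08 ± 0.12 at the late stage. Its inhibitor geminin was higher in soma by 1.08 ± 0.28 (adjusted p = 0.00187) and 0.87 ± 0.28 (adjusted p = 0.00997), and with library totals by 0.69 (adjusted p = 0.0396) and, not called, 0.46. The CPM of geminin overlapped, from 25.7 to 94.7 in soma and from 15.6 to 53.9 in the germ line.

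RnrL, the large subunit of ribonucleotide reductase, which makes deoxynucleotides, ran from 175 to 299 CPM in soma with a median of 244 and from 444 to 881 CPM in the germ line with a median of 687. It was lower in soma by a log2 of -0.89 ± 0.11 (SE) at the mid stage (adjusted p = 2.55e-07) and -1.20 ± 0.12 at the late stage (adjusted p = 1.26e-09). The small subunit RnrS was not called (-0.18 ± 0.14 and -0.08 ± 0.14), and neither was the sliding clamp PCNA (0.11 ± 0.24 and -0.56 ± 0.24). With library totals both were called lower in soma at the late stage (-0.48 for RnrS and -0.97 for PCNA), and RnrS also at the mid stage (-0.57).

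Of the mitotic cyclins, cyclin B (CycB) and cyclin A (CycA) were lower in soma at both stages. CycB (FBgn0000405, 2R, 22803521 to 22806948, minus strand) ran from 133 to 462 CPM in soma with a median of 242 and from 565 to 943 CPM in the germ line with a median of 776, and differed by -1.08 ± 0.11 (log2, SE, adjusted p = 7.54e-09) and -0.84 ± 0.11 (adjusted p = 4.55e-07). CycA ran from 196 to 309 CPM in soma and from 420 to 800 CPM in the germ line, and differed by -0.54 ± 0.12 and -0.86 ± 0.12 (adjusted p = 3.11e-04 and 5.52e-07). The CycA call within hpo RNAi at the mid stage was lost without soma hpo RNAi mid replicate 1 (adjusted p = 0.0521) and that within yki RNAi without soma yki RNAi mid replicate 2 (adjusted p = 0.0694). CycB3 was lower at the mid stage by -0.30 ± 0.11 (adjusted p = 0.0205) and stood at -0.06 ± 0.11 at the late stage. The CycB3 call was lost without soma yki RNAi mid replicate 3 or germ line hpo RNAi mid replicate 3, with adjusted p up to 0.0623. Per length CycB3 made up 33.8% ± 4.3 (SD, n = 3) to 42.0% ± 1.2 of the summed RPKM of CycB and CycB3 in the somatic groups, and 22.4% ± 1.8 to 26.0% ± 1.6 in the germ line groups. The mitotic kinase Cdk1 was lower in soma by -0.42 ± 0.14 (adjusted p = 0.014) and -0.81 ± 0.14 (adjusted p = 2.13e-05).

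Aurora A (aurA), a kinase of centrosomes and spindle poles, ran from 5.20 to 20.8 CPM in soma with a median of 13.7 and from 30.05 to 89.9 CPM in the germ line with a median of 72.1. It was lower in soma, by -1.70 ± 0.28 (log2, SE, adjusted p = 1.36e-05) and -2.05 ± 0.29 (adjusted p = 9.61e-07). An exon of aurA shares 153 bp with CG12213 on the other strand, which had 46073 counts in total against 36789 for aurA. Aurora B (aurB), the kinase of the chromosomal passenger complex, was not called (-0.18 ± 0.24 and -0.54 ± 0.24, adjusted p = 0.562 and 0.0621). The Polo kinase gene polo was lower at the late stage (-0.40 ± 0.09, adjusted p = 5.73e-04) and stood at -0.19 ± 0.09 at the mid stage. The checkpoint genes BubR1 (-0.51 ± 0.14 and -0.75 ± 0.14) and Mad2 (-0.69 ± 0.19 and -0.74 ± 0.19) were lower at both, with adjusted p from 9.28e-05 to 0.00447.

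The Cdc20 homolog fzy, which drives exit from mitosis, ran from 109 to 205 CPM in soma with a median of 147 and from 339 to 616 CPM in the germ line with a median of 480. It was lower in soma, by -1.16 ± 0.14 (log2, SE, adjusted p = 8.33e-08) and -1.30 ± 0.14 (adjusted p = 9.95e-09). The Cdh1 homolog fzr, which keeps the complex active in G1 and in endocycles, ran from 8.23 to 26.9 CPM in soma with a median of 21.8 and from 49.3 to 82.7 CPM in the germ line with a median of 66.9. It was lower by -1.49 ± 0.20 (adjusted p = 4.09e-07) and -1.08 ± 0.19 (adjusted p = 3.6e-05). Within hpo RNAi the late call of fzr was lost without germ line hpo RNAi late replicate 1 (adjusted p = 0.0659).

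**Figure D3:**
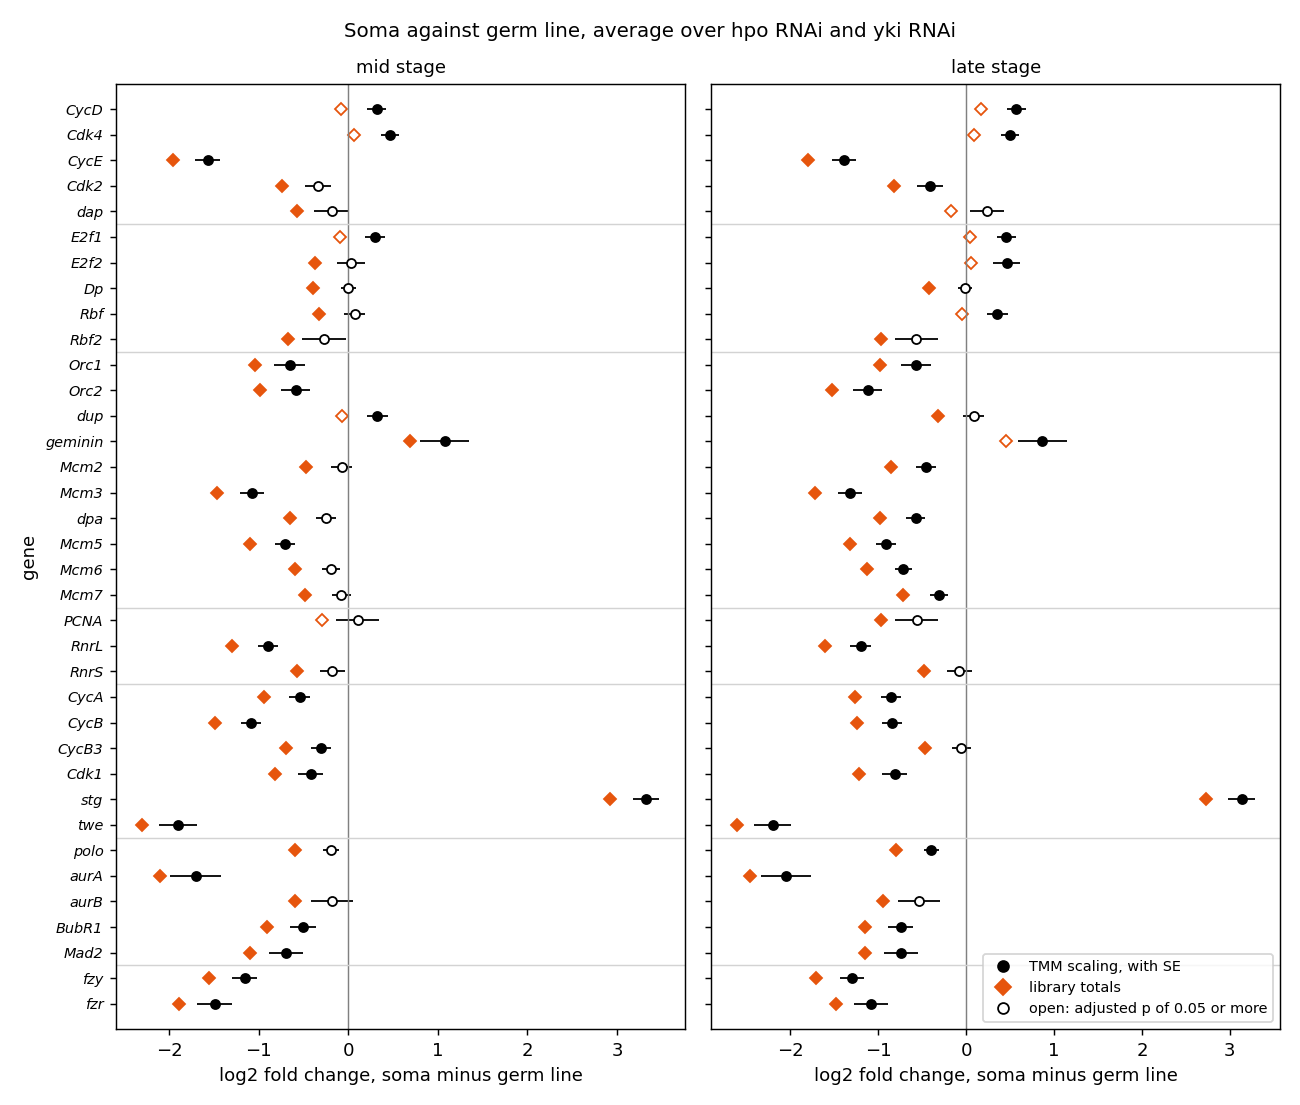
Points give the log2 fold change of each gene, soma minus germ line, averaged over both RNAi conditions at the mid stage (left) and late stage (right); black circles with SE bars are values on the TMM scale, orange diamonds the values with library totals, and open symbols were not called. The diamonds lie about 0.40 to the left of the circles, so that stg stays far to the right and CycE, twe, aurA, fzy and fzr stay left of 0 under both, while CycD, Cdk4 and E2f1 are called under TMM scaling only.

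The summed CPM of the 36 genes was 4475 ± 621 (SD, n = 3) to 5445 ± 499 in the somatic groups and 7712 ± 652 to 9975 ± 538 in the germ line groups. On this scale of library totals no somatic library overlapped a germ line library. The sums carry no TMM factor. Those factors were 1.05 to 1.22 in the germ line and 0.848 to 0.970 in soma, which narrows the gap, and overlap on the TMM scale was not tested. In bulk RNA of sorted cells, fewer cells in a given phase and less RNA per cell cannot be told apart. Other genes of the same pathways were counted from a list of 78, of which 76 were in the table and tested. At the mid stage 10 were called higher and 41 lower in soma, and at the late stage 10 higher and 47 lower. At both stages the share called lower was larger, and the share called higher smaller, than that of all genes given above. The medians were a log2 of -0.57 and -0.73, both below the medians of all genes on the TMM scale given above. By smallest p, the checkpoint kinase lok (-2.30 ± 0.13 SE and -2.57 ± 0.13) and the cytokinesis kinesin pav (-1.79 ± 0.11 and -2.08 ± 0.11) were lower in soma. The kinetochore gene Zwilch (1.68 ± 0.18 at the mid stage), the cyclin G gene CycG (1.25 ± 0.14 at the mid stage) and the transcription factor gene Myb (0.94 ± 0.11 at the late stage) were higher.

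The next comparison asked how the genes changed between stages in the soma. From mid to late, 10 members rose on average over the RNAi conditions and none fell. Their share of 27.8% was near the 27.2% of all genes called, so the count does not set the members apart. The split of all genes by direction is not given here. The risers were the cyclins CycB, CycB3, CycE and CycD, all E2F and Rbf genes but Rbf2, the licensing factor dup and the reductase subunit RnrS. The 6 Mcm subunits, Cdk1, stg and the checkpoint genes did not pass the test. The median log2 change was 0.12 over the members and 0.05 over all genes.

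CycB in the soma measured 262, 259 and 276 CPM at mid stage under hpo RNAi and 433, 462 and 291 at late stage. Under yki RNAi it measured 224, 186 and 225 CPM at mid stage and 362, 374 and 337 at late stage. All late libraries were above all mid libraries. The log2 change was 0.67 ± 0.12 (SE) on average (adjusted p = 3.84e-04), 0.59 with hpo RNAi, against 0.75 with yki RNAi. CycB3, which joins CycB in mitosis, measured 161, 132 and 128 CPM under hpo RNAi at mid stage and 200, 232 and 188 at late stage. Under yki RNAi it went from 137, 121 and 109 to 165, 155 and 201 CPM, without overlap within either RNAi condition. Its change was 0.55 ± 0.10 (adjusted p = 5.78e-04).

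CycE measured 67.3, 53.6 and 49.9 CPM at mid stage under hpo RNAi and 90.2, 91.1 and 95.5 at late stage, and under yki RNAi 63.4, 70.4 and 74.3 against 96.0, 91.8 and 109. The late libraries were again all above the mid libraries, with a change of 0.62 ± 0.12 (SE, adjusted p = 8.85e-04). E2f1 went from 179, 155 and 158 to 209, 225 and 197 CPM with hpo RNAi, and with yki RNAi from 181, 189 and 209 to 272, 233 and 275, a change of 0.41 ± 0.09 (adjusted p = 0.00205).

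Rbf went from 109, 103 and 103 to 166, 167 and 151 CPM with hpo RNAi, and with yki RNAi from 113, 123 and 148 to 156, 151 and 159, a change of 0.46 ± 0.11 (SE, adjusted p = 0.00393). dup went from 85.6, 79.7 and 80.5 to 110, 130 and 104 CPM with hpo RNAi, and with yki RNAi from 72.1, 66.9 and 89.3 to 98.2, 122 and 104, a change of 0.50 ± 0.12 (adjusted p = 0.00278). An exon of dup shares 158 bp with SRPK on the other strand, which had 460114 counts in total against 98020 for dup. E2f2 (0.44), CycD (0.33), RnrS (0.37) and Dp (0.23) had adjusted p from 0.0333 to 0.0478, and each lost its call in 8 to 13 of the 18 fits with 1 library left out. CycB, CycB3, CycE, E2f1, dup and Rbf kept theirs in all 18.

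A trend with exon length moved with this comparison. The 7 members with less than 1600 bp of exon (geminin, PCNA, RnrS, Cdk1, aurA, aurB and Mad2) had a median log2 change of -0.19, and the other 29 had a median of 0.25. With each library's trend over exon length removed, 5 members were called, against 24.1% of all genes. CycB (0.49, adjusted p = 0.00527), CycB3 (0.38, adjusted p = 0.00414) and RnrS (0.38, adjusted p = 0.0244) still rose, Mcm6 (-0.28) and stg (-0.38, adjusted p = 0.0262) fell, and CycE (0.28, adjusted p = 0.0661), E2f1 (0.01), dup (0.32, adjusted p = 0.0659) and Rbf were no longer called. The hemocyte marker Pxn also differed, at 34.9 to 155 CPM in the mid and 883 to 1763 CPM in the late somatic libraries, and srp at 17.3 to 28.0 against 56.5 to 94.5 CPM, while the other 5 hemocyte markers (He, eater, NimC1, Hml and Sr-CI) stayed between 0 and 1.89 CPM. The muscle list summed to 54 to 109 CPM in the mid and 201 to 315 CPM in the late libraries. Of its 9 genes sls and Act57B were higher late, Mlc2 was lower, and the other 6 stayed between 0 and 2.07 CPM. Mitochondrial genes took 3.92% to 13.7% of counts in the mid libraries and 3.88% to 6.31% in the late ones. The part of these in the changes of the members was not tested. Of the 76 other pathway genes 9 rose and 5 fell in soma from mid to late, together a smaller share than that of all genes given above for this comparison. By smallest p these were the kinesin gene Klp3A (0.55 ± 0.13 SE) and the centromere gene Cenp-C (0.54 ± 0.14) upward, and the clamp loader subunit Rfc4 (-0.79 ± 0.19) and dUTPase (-0.87 ± 0.21) downward.

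**Figure D4:**
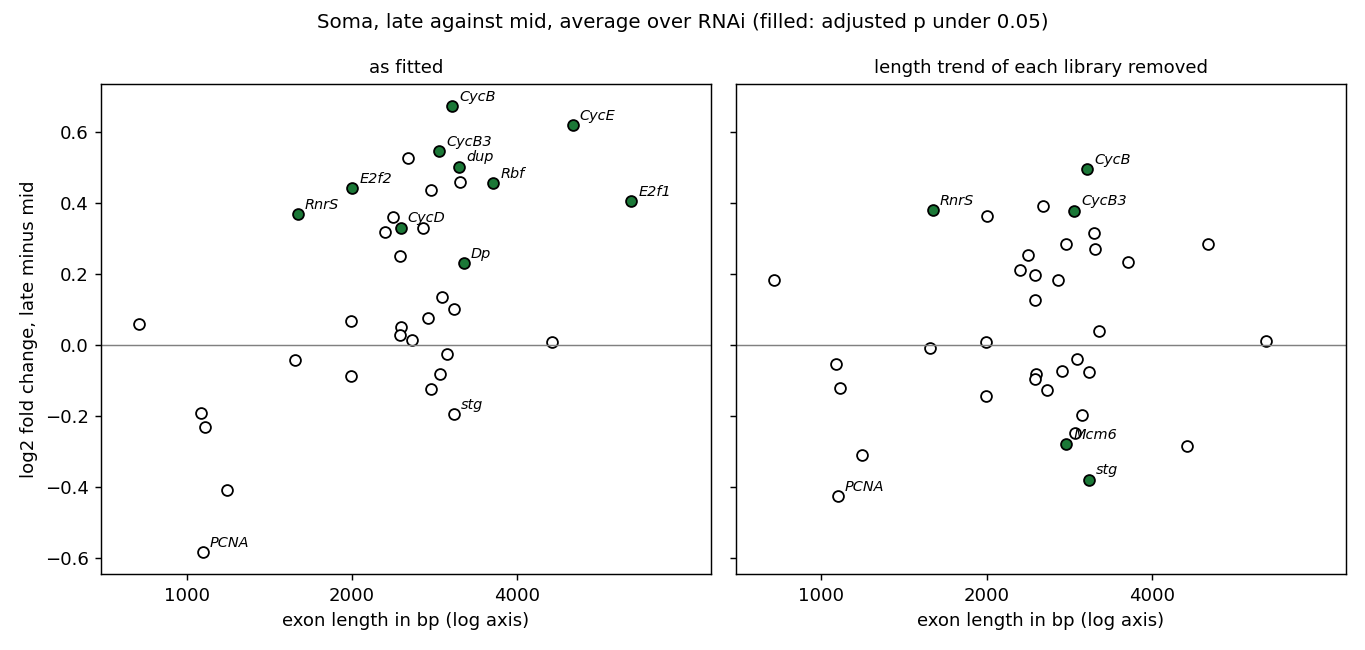
Each point is 1 of the 36 genes in soma, with exon length on a log x axis and the log2 change from mid to late, averaged over RNAi conditions, on the y axis; filled points were called. As fitted (left) all 10 called genes rose, and with the length trend of each library removed (right) 3 rose and 2 fell, with CycE at 0.28 and E2f1 at 0.01 no longer called.

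Within single RNAi conditions, 7 members rose from mid to late under hpo RNAi (15.8% of all genes called) and 4 under yki RNAi (13.2%). CycB, CycB3 and E2f1 were on both lists. With the exon length trend removed, CycB3 (0.40) still rose under hpo RNAi and BubR1 (-0.59) fell, against 14.8% of all genes, while CycE (0.33), Rbf (0.38) and E2f1 (-0.092) were among those no longer called. Under yki RNAi CycB (0.60) and E2f2 (0.74) kept their calls, against 13.4% of all genes. CycE (0.73), Rbf (0.64), CycD (0.52) and dup (0.51) passed under hpo RNAi, and E2f2 (0.81) under yki RNAi. Under yki RNAi the log2 change was 0.51 ± 0.18 (SE) for CycE (adjusted p = 0.064), 0.27 ± 0.15 for Rbf (adjusted p = 0.303) and 0.50 ± 0.16 for dup (adjusted p = 0.0503). Tested directly, no member differed between RNAi conditions in its change from mid to late, by edgeR or by DESeq2. The share of all genes in edgeR was 0.403%, and 2 members had an unadjusted p under 0.05. Shares of all genes, here and below, are at an adjusted p under 0.05. Counts of members at an unadjusted p under 0.05 therefore have no background. Without soma hpo RNAi late replicate 2, 2 members were called under hpo RNAi, and the share of all genes in that fit is not given here.

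From early to mid the soma changed less. RnrS and Mcm2 rose on average over the RNAi conditions, 2 members against 3.5% of all genes. RnrS measured 50.5, 53.5 and 66.5 CPM early under hpo RNAi and 127, 68.6 and 95.8 at mid stage, and under yki RNAi 101, 82.9 and 66.5 against 125, 105 and 105. Every mid library was above every early library of the same RNAi condition, and the log2 change was 0.62 ± 0.13 (SE, adjusted p = 0.0089), a call kept in all 18 fits with 1 library left out. Mcm2 measured 206, 181 and 205 CPM early under hpo RNAi and 272, 195 and 281 at mid stage, and under yki RNAi 208, 181 and 154 against 216, 265 and 243. Its groups overlapped under hpo RNAi only, and its change of 0.41 ± 0.11 (adjusted p = 0.0419) lost its call in 14 of the 18 fits. Of the 76 other genes, Orc5 (0.57 ± 0.15) rose and trbl, whose product opposes stg, fell (-0.56 ± 0.15).

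Under hpo RNAi alone RnrS (0.78 ± 0.18 SE, adjusted p = 0.0254) and E2f2 (0.82 ± 0.21, adjusted p = 0.0433) rose from early to mid, against 2.72% of all genes called. In the same libraries mitochondrial genes took 3.27% to 4.15% of counts early and 3.92% to 13.7% at mid stage, and Pxn measured 2.51 to 12.5 CPM early and 45.3 to 155 CPM at mid stage. Their part in the result was not tested. Under yki RNAi no member was called by edgeR or DESeq2, against 0.684% of all genes in edgeR, and 5 had an unadjusted p under 0.05. For E2f2 the early to mid change was 0.82 with the hpo hairpin and -0.56 with the yki hairpin, a difference of 1.38 ± 0.30. That difference was not called (adjusted p = 0.0888 in edgeR), like those of the other members, against 0.131% of all genes. DESeq2 called 1 member, E2f2, against 1.77% of all genes, and in edgeR 2 members had an unadjusted p under 0.05. Without soma hpo RNAi mid replicate 1, edgeR called 1 as well, and the share of all genes in that fit is not given here.

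In the germ line the change from mid to late was tested in 6 libraries against 6. Averaged over the RNAi conditions twe and dup rose, 2 members against 0.149% of all genes, and 30 of the 36 had a positive log2 change, with a median of 0.22 over the members and -0.02 over all genes. The gene twe measured 71.6, 74.1 and 62.5 CPM at mid stage under hpo RNAi and 121, 109 and 104 at late stage. Under yki RNAi it measured 52.8, 50.8 and 56.4 CPM at mid stage and 74.5, 93.3 and 82.1 at late stage. All late libraries were above all mid libraries, by a log2 of 0.62 ± 0.10 (SE, adjusted p = 0.0258).

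Germ line dup went from 98.0, 79.7 and 71.5 to 146, 117 and 107 CPM with hpo RNAi, and with yki RNAi from 89.9, 77.1 and 82.3 to 127, 188 and 153, a change of 0.71 ± 0.12 (SE, adjusted p = 0.0376). The call of twe was lost in 6 and that of dup in 9 of the 12 fits with 1 library left out. Next by p came CycB (0.39 ± 0.10, adjusted p = 0.205), Mcm7 (0.45 ± 0.12, adjusted p = 0.22), CycA (0.42 ± 0.11, adjusted p = 0.22) and Rbf2 (0.58 ± 0.16, adjusted p = 0.221). The G1 genes CycD (0.04 ± 0.10) and Cdk4 (-0.02 ± 0.12) had small values. None of the 76 other genes was called in this comparison.

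Within hpo RNAi no germ line member was called by edgeR, against 0% of all genes, and 7 had an unadjusted p under 0.05. DESeq2 called 1, twe, and 79 of all 14261 genes. Within yki RNAi none was called by edgeR, against 0.0187% of all genes, and 12 had an unadjusted p under 0.05. DESeq2 called 1, dup, and 37 of all 14261 genes. The share of all genes at an unadjusted p under 0.05 is not given here, so the counts of 7 and 12 have no background. No member differed between the RNAi conditions in its change, by edgeR or DESeq2. The share of all genes in edgeR was 0%, and 1 member had an unadjusted p under 0.05.

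The change from mid to late was also compared between cell types. Mcm6 alone was called, 1 member against 9.78% of all genes. In soma Mcm6 measured 266, 194 and 277 CPM at mid stage and 243, 256 and 215 at late stage with hpo RNAi, and with yki RNAi 253, 273 and 243 against 205, 237 and 217. In the germ line it measured 429, 399 and 337 CPM at mid stage and 558, 465 and 423 at late stage with hpo RNAi, and with yki RNAi 375, 357 and 367 against 482, 536 and 525. The log2 change was -0.12 ± 0.10 (SE) in soma and 0.36 ± 0.10 in the germ line, each in a fit of its own cell type and neither called. In the joint fit the difference, soma minus germ line, was -0.53 ± 0.14 (adjusted p = 0.012). Over the 36 members this difference had a median of -0.21, against 0.07 over all genes.

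Setting the hpo hairpin against the yki hairpin asks what the Hippo pathway does to these genes, since yki acts downstream of hpo and is restrained by it. Few members differed. In early soma dap and E2f2 were lower under hpo RNAi than under yki RNAi, 2 members against 2.45% of all genes called. With only the compared libraries in the fit, neither was called, against 0.853% of all genes in that fit. DESeq2 called both, and RnrS (-0.57) and RnrL (-0.41) with them, against 6.25% of all genes. In mid and late soma and in the germ line edgeR called no member. CycE, a known Yki target in other fly tissues, did not pass in edgeR in any of these comparisons.

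The gene dap (FBgn0010316, 2R, 9712321 to 9716256, plus strand) measured 23.4, 23.8 and 14.1 CPM in early soma with hpo RNAi, against 49.3, 39.6 and 64.4 with yki RNAi, without overlap. The log2 difference, hpo minus yki RNAi, was -1.35 ± 0.28 (SE, adjusted p = 0.0115), and -1.11 (adjusted p = 0.0693) without soma yki RNAi early replicate 3. At the mid stage dap measured 25.8, 46.8 and 37.6 CPM against 35.0, 46.2 and 33.1, and at the late stage 38.7, 46.6 and 56.4 against 65.9, 46.7 and 72.8, with differences of -0.05 ± 0.28 and -0.38 ± 0.28.

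E2f2 (FBgn0024371, 2L, 21154293 to 21156749, minus strand) measured 18.9, 15.1 and 19.0 CPM in early soma with hpo RNAi, against 28.4, 36.7 and 30.9 with yki RNAi, without overlap. Its log2 difference was -0.87 ± 0.21 (SE, adjusted p = 0.0322) at the early stage, 0.50 ± 0.21 at the mid stage (adjusted p = 0.308) and -0.23 ± 0.21 at the late stage. Its early call was lost in 8 of the 18 fits with 1 library left out, with adjusted p up to 0.139. An exon of E2f2 shares 399 bp with Mpp6 on the other strand, which had 3794 counts in total against 31859 for E2f2. The share of mitochondrial genes also differed between these early groups, at 3.27% to 4.15% of counts with hpo RNAi against 6.05% to 10.6% with yki RNAi, and its part in the result was not tested.

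CycE measured 67.8, 45.5 and 58.8 CPM in early soma with hpo RNAi, against 96.5, 59.7 and 64.1 with yki RNAi, and the groups overlapped. Its log2 difference was -0.36 ± 0.18 (SE, adjusted p = 0.256) early, -0.32 ± 0.18 (adjusted p = 0.479) mid, -0.09 ± 0.17 late and -0.26 ± 0.10 (adjusted p = 0.164) over the stages. stg measured 705, 461 and 565 CPM in early soma with hpo RNAi, against 476, 374 and 367 with yki RNAi, with a difference of 0.50 ± 0.18 (adjusted p = 0.159).

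**Figure D5:**
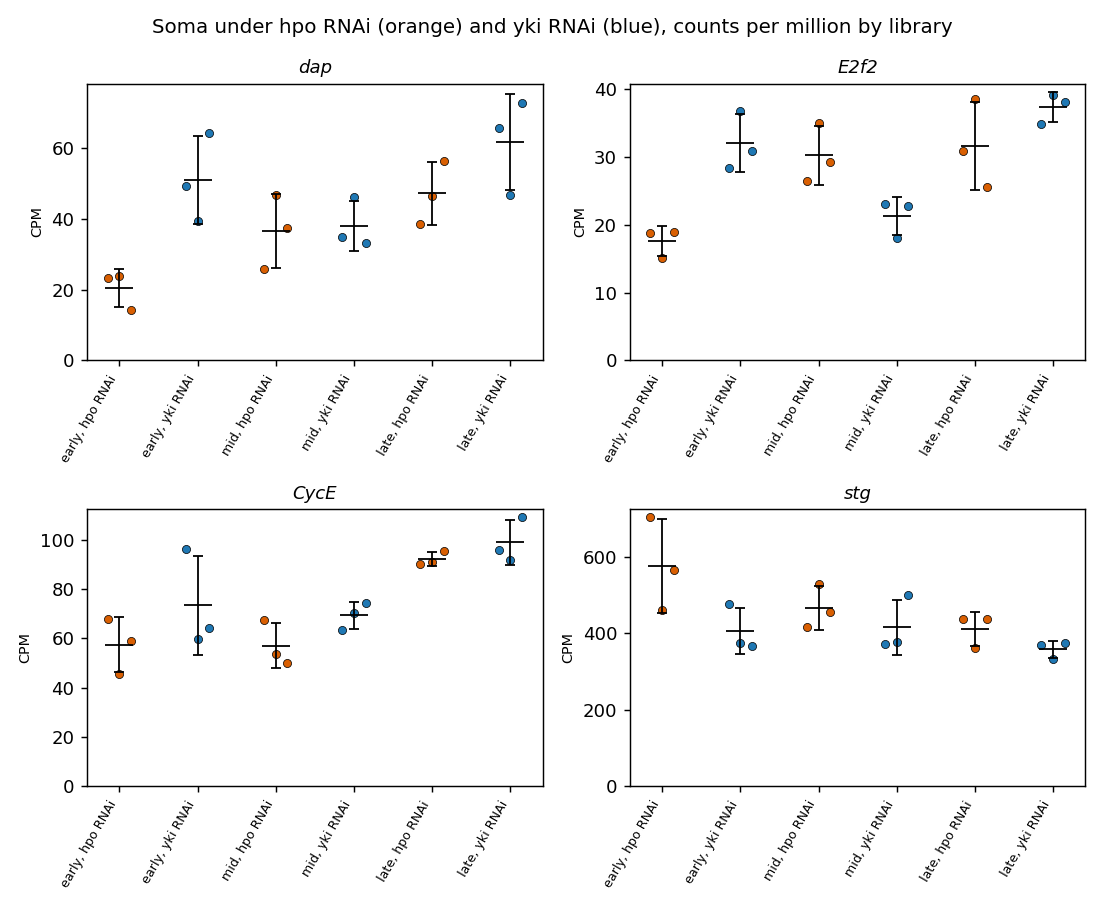
Each panel shows 1 gene in the 6 somatic groups, with 1 point a library (3 a group), the mean as a tick, the SD as the bar and CPM from 0 on the linear y axis. The early hpo RNAi libraries (orange) of dap and E2f2 lie below the early yki RNAi libraries (blue), at 14.1 to 23.8 against 39.6 to 64.4 CPM for dap, whereas the early libraries of CycE and stg overlap.

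At the mid stage in soma edgeR and DESeq2 called no member, against 2.5% of all genes in edgeR, and 1 had an unadjusted p under 0.05. At the late stage they called none, against 1.03% in edgeR, and 3 had an unadjusted p under 0.05. The shares are at an adjusted p, so the counts at an unadjusted p have no background. With only the compared libraries in the fit, dpa was called late (0.35, adjusted p = 0.0381 in edgeR), against 6.82% of all genes in that fit. Averaged over the stages edgeR called dap alone, at -0.59 ± 0.16 (SE, adjusted p = 0.0316), against 5.48% of all genes, and this call was lost in 9 of the 18 fits with 1 library left out. Next by p stood Dp (0.20 ± 0.07), dpa (0.26 ± 0.09), Mcm7 (0.21 ± 0.08), stg (0.29 ± 0.11) and RnrS (-0.27 ± 0.10), with adjusted p from 0.112 to 0.148 in edgeR. DESeq2 called 5 on this average, dap, Dp, E2f1 (-0.20), dpa and Mcm7, with adjusted p from 0.00776 to 0.0469, against 7.48% of all genes. The SE of the stage averages lay between 0.07 and 0.26 over the members, and 35 of the 36 had an estimate of less than 0.5 in size. Of the 76 other genes 3 were higher under hpo RNAi and none lower, with tum (0.35 ± 0.08, adjusted p = 0.00788) and glu (0.37 ± 0.09, adjusted p = 0.0156) first by p. Of these, tum acts in cytokinesis and glu encodes a condensin subunit.

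In the germ line no member was called by edgeR or DESeq2 at the mid or the late stage. The share of all genes in edgeR was 0.103% at the mid stage, with 2 members at an unadjusted p under 0.05. At the late stage it was 0.187%, with 3 members. Averaged over both stages edgeR called none, against 0.635% of all genes. The gene yki itself was not called by edgeR at either stage or on this average. DESeq2 called 1, twe (0.38, adjusted p = 0.0469), against 1.54% of all genes, and in edgeR 4 had an unadjusted p under 0.05. The smallest adjusted p was that of twe, 0.404 ± 0.099 (SE) higher on the log2 scale under hpo RNAi with an adjusted p of 0.109. Its libraries did not overlap within either stage. The germ line estimates of all 36 members were under 0.5 in size on this average, with SE from 0.10 to 0.25.

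Whether the RNAi difference depended on the cell type was tested in the joint fit. No member was called at the mid stage by edgeR or DESeq2, against 0.165% of all genes in edgeR, and 2 had an unadjusted p under 0.05. None was called at the late stage, against 0.182% in edgeR, and none had an unadjusted p under 0.05.

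Some short members varied widely between libraries of 1 group. In the germ line yki RNAi mid group PCNA measured 214, 110 and 363 CPM, aurB 65.2, 22.5 and 88.1, and geminin 27.6, 15.6 and 43.5. The median deviation of the 7 members under 1600 bp from their group means, less that of the 29 longer ones, was a log2 of -0.68 in replicate 3 of that group and 0.70 in replicate 4, and lay within 0.5 of 0 in the other 28 libraries. Over all libraries members ran from 5.20 CPM (aurA) to 943 CPM (CycB).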

How the data were processed

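RNA of GFP-sorted cells was measured in 30 libraries, 3 in each of 10 groups, per the labels. The authors deposited expected counts per gene, not normalized, of which 86.47% were whole within 1e-06. The submitters' processing notes name bcl2fastq 2.2, RSEM 1.3.3, STAR 2.7.6a and DESeq2 1.26.0, without their roles, and the genome build, annotation and strand counted are not given in the sources used here. A further 18 columns of the table belong to no sample here and were not used. Positions and exon lengths were looked up by gene ID in the BDGP6.54 annotation, where 16206 of 16257 IDs were found.

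Counts were rounded and analysed in R 4.3.3 with edgeR 4.0.16: filterByExpr (minimum count 10), TMM, glmQLFit and glmQLFTest, with Benjamini-Hochberg adjustment over all genes tested. Separate fits held the 18 somatic libraries (10672 genes), the 12 germ line libraries (10717 genes) and all 30 (12089 genes). All 36 members passed the filter in each. A gene was called at an adjusted p under 0.05. Where neither tool called a member, the share of all genes is that of edgeR, and that of DESeq2 is not given. Shares for DESeq2 are over 13975 genes in soma and 14261 in the germ line, more than edgeR tested. The shares of the tools are therefore not directly comparable. Counts at an unadjusted p under 0.05 are of members only, without the share of all genes at that threshold. The SE is the log2 fold change divided by the square root of F. CPM are per 1e+06 counts of the library total. RPKM divide these by exon length. Replicates of a group differed beyond sampling noise in all 30 pairs.

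Levels and full statistics are given, per family of comparisons, for called members, up to the 6 of smallest p in the average comparison, and for members called in every single comparison; the other members are given by estimate or count. The members, the gene lists, this rule and the tests were chosen with earlier results of these data known. Alternatives were DESeq2 1.42.0, RLE size factors, no filter, a stricter filter (5 CPM in 3 libraries), a fit to only the compared libraries, a block for replicate number, removal of each library's exon length trend, and leaving out each library. Scaling to library totals was added after seeing the data. The scripts were tested on simulated data.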

Additional observations from a re-analysis of the deposited data

Results flagged for a closer look

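The change of Mcm6 from mid to late differed between cell types by the test of the difference itself. No other member was called, and the share of members called was smaller than that of all genes in this test. Mcm6, a subunit of the replicative helicase, had a log2 difference of changes, soma minus germ line, of -0.53 ± 0.14 (SE, adjusted p = 0.012, edgeR). Within soma the change was -0.12 and within the germ line 0.36. The call held in all 30 fits with 1 library left out and in the 8 other settings tried.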

How the results depend on the processing

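Of the single results under other settings, 1146 kept direction and call, 112 lost the call and 6 changed sign. With each library left out in turn, 4129 kept both and 239 lost the call. The changes of sign were that of E2f1 in soma under hpo RNAi from mid to late with the exon length trend removed (-0.092) and, with library totals, those of dup (-0.073), CycD (-0.076) and E2f1 (-0.087) between cell types at the mid stage, Rbf (-0.052) at the late stage and Cdk4 (-0.035) at the late stage under hpo RNAi. In what follows the percentage is the share of all genes called in the same fit. DESeq2 called 4 members for RNAi in early soma (6.25%), 5 on the somatic average (7.48%) and 1 on the germ line average (1.54%). From mid to late in the germ line it called 1 under hpo RNAi (0.554%), 1 under yki RNAi (0.259%) and 5 on average (1.31%), and for the somatic interaction from early to mid 1 (1.77%). With the exon length trend removed the somatic counts were 1 from early to mid under hpo RNAi (2.53%), and from mid to late 2 under hpo RNAi (14.8%), 2 under yki RNAi (13.4%) and 5 on average (24.1%). With only the compared libraries they were 0 for RNAi in early soma (0.853%), 1 for RNAi in late soma (6.82%), 0 from early to mid under hpo RNAi (0.58%), 1 on average (1.6%), and 12 between cell types at the mid stage under yki RNAi (32.7%). With library totals they were 1 from early to mid on average (3.31%) and 27 between cell types at the mid stage under hpo RNAi (42.8%). The causes were not tested.

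Replicate numbers did not pair the samples: the median correlation of deviations between same-numbered libraries was 0.002 over 40 pairs in soma, with 2 over 0.1, and 0.028 over 12 pairs in the germ line, with 3 over 0.1 and a highest value of 0.333. Of 42 differently numbered germ line pairs 4 were over 0.1, with a highest value of 0.179. With the replicate block, 0 members were called for RNAi in early soma (2.29%), 0 on the somatic average (5.43%), 1 from early to mid under hpo RNAi (2.36%), 1 on average (2.3%), and 0 from mid to late in the germ line on average (0.121%). The calls lost were those of dap and E2f2 early, dap on average, E2f2 under hpo RNAi and Mcm2 on average from early to mid, and twe and dup in the germ line.

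With 1 library left out, counts ran from 0 to 2 for RNAi in early soma (0 without soma yki RNAi early replicate 3), 0 to 2 on the somatic average and 0 to 1 on the germ line average (1 without germ line yki RNAi mid replicate 4). From early to mid they ran from 0 to 2 under hpo RNAi and 1 to 2 on average. From mid to late in soma they ran from 2 to 7 under hpo RNAi, 1 to 6 under yki RNAi and 6 to 13 on average, and in the germ line from 0 to 2 on average. Between cell types they ran from 11 to 13 (mid, hpo RNAi), 15 to 21 (mid, yki RNAi), 19 to 24 (mid, average), 19 to 24 (late, hpo RNAi), 18 to 24 (late, yki RNAi) and 27 to 31 (late, average). The somatic interaction from early to mid ran from 0 to 1. The shares of all genes called in these fits are not given here, so the member counts have no background. With SE of about 0.18 in a single comparison, small changes were not detectable.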
